A study of Homo sapiens with 2 samples.

Results

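The regions described here were 500 bp tiles of intergenic DNA in which SKNO-1 cells carried far less CpG methylation than SKNO1-siAE cells. The autosomes were cut into fixed 500 bp tiles, and a tile was kept for comparison when at least 10 of its CpG cytosines had 5 or more reads in each library. The level of a tile was the mean over these cytosines of methylated reads divided by all reads, so that 0 is unmethylated and 1 is methylated on every read. Of 99847 tiles that could be compared, 24231 overlapped no protein-coding gene and lay more than 1500 bp from every protein-coding transcript start. Among these intergenic tiles, 815 had a level in SKNO-1 that was lower than in SKNO1-siAE by 0.6 or more, or 3.36%. The tiles were thus chosen by the levels of both libraries, and the difference itself is a description with no test.

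SKNO-1 is a human acute myeloid leukaemia cell line with the RUNX1-RUNX1T1 (AML1-ETO) fusion. SKNO1-siAE is a derivative in which lentivirus (pRRLcPPT.hPGK) delivers small interfering RNA, named siAGF1, that targets the junction of the AML1-ETO messenger. Both lines share the SKNO-1 background and the same culture medium, and neither library analysed here came from cells given a demethylating drug. DNA methylation was read by MCC-Seq, in which probes capture bisulfite-converted DNA of selected regions, with 1 library per line. The labels do not say whether SKNO1-siAE is a single clone or a pool, and they name no control-vector line, so silencing of the fusion cannot be told apart from infection or from the separate culture of the derivative. The labels and the deposited counts give no measure of the fusion transcript in these libraries.

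In mammalian cells most CpG dinucleotides are methylated, whereas CpG islands, stretches with many CpG, usually are not. Islands lie at most gene starts, but a good number lie far from any protein-coding gene, at enhancers, at starts of long noncoding RNAs (lncRNAs) or at starts whose gene is not annotated. RUNX1 is a transcription factor of blood formation, and its fusion to RUNX1T1 joins its DNA-binding domain to a corepressor.

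The following stretches of 300 bp show the DNA behind the main loci. They come from the tile with the largest difference in each of 6 loci, both loci of 4 tiles and those 4 of the 18 loci of 3 tiles that had the most measured cytosines, and from the tile in GATA2-AS1, which was added after its values were seen. The mean levels given below are those of the printed stretch, which can differ from those of the whole tile. They are the + strand of hg19, read from the GRCh37 assembly and have each CpG in capitals.
Nearest GPX6, chr6:28459146-28459445: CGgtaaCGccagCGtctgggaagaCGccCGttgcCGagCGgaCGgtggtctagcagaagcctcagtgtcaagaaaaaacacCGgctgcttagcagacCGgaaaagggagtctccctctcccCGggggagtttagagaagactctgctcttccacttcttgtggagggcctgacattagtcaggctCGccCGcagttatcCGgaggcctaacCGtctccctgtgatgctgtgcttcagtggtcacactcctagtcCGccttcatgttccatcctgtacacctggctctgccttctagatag
Nearest TSC22D1, chr13:44990001-44990300: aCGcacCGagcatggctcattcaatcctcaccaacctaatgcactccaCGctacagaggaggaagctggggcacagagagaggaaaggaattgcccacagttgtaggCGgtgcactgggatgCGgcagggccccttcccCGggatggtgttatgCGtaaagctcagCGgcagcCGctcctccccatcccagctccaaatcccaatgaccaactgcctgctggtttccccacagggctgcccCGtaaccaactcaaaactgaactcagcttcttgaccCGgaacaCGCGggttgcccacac
Nearest TBX2, chr17:59488149-59488448: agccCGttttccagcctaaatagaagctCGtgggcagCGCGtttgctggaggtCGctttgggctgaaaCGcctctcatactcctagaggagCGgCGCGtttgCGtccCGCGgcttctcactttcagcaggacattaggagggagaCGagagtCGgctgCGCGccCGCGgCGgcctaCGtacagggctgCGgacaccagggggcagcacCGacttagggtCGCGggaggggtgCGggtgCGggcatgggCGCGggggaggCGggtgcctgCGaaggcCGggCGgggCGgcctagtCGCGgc
Nearest FAM72B, chr1:121261128-121261427: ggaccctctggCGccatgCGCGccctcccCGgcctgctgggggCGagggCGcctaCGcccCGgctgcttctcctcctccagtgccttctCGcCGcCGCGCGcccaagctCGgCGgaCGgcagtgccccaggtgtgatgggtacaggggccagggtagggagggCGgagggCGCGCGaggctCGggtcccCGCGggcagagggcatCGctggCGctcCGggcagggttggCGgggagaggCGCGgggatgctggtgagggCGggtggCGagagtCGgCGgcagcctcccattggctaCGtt
Nearest FOXP4, chr6:41472677-41472976: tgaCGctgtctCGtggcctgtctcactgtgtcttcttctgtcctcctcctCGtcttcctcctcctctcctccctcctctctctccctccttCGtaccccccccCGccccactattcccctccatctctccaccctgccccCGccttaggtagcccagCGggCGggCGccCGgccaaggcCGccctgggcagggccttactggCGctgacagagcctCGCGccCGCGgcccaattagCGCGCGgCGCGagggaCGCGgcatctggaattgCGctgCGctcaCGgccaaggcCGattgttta
Nearest SELENOP, chr5:42950001-42950300: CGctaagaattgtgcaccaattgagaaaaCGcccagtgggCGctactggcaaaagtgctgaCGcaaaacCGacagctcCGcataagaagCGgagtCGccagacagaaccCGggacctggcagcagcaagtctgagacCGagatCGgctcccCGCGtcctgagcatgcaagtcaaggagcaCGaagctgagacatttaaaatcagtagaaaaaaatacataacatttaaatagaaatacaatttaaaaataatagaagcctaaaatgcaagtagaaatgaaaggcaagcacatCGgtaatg
Nearest GATA2, chr3:128216585-128216884: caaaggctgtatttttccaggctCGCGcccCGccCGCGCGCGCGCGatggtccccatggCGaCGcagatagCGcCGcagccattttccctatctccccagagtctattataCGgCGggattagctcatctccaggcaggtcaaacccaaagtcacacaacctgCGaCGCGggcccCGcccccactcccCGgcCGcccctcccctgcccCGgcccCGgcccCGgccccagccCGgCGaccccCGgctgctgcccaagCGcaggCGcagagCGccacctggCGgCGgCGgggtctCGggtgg

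In the stretch nearest GPX6, all 23 cytosines with enough reads were unmethylated in SKNO-1 (mean level 0) and averaged 0.971 in SKNO1-siAE. The TSC22D1 stretch holds 13 CpG, and its 15 measured cytosines had mean levels of 0 and 1. The stretches nearest TBX2 and FAM72B hold 35 and 34 CpG, and their mean levels were 0 and 0.00370 in SKNO-1 against 0.996 and 0.977 in SKNO1-siAE. The FOXP4 stretch, with 27 CpG, had mean levels of 0.0364 and 1, and its whole tile had 0.108 and 0.983. The SELENOP stretch, the poorest of these in G and C (45.7%), had mean levels of 0.0111 and 0.966. The GATA2 stretch, with 34 CpG over 71.7% G and C, had mean levels of 0 and 0.992.

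The 815 tiles held 19162 CpG cytosines with enough reads, with 341512 calls in SKNO-1 and 369900 in SKNO1-siAE. A call is 1 cytosine on 1 read, so a read that covers several CpG gives several calls. Counts below are such calls summed over a tile or locus, they are not independent reads, and no interval is given for them. In SKNO-1 the median level of the tiles was 0.0489 (interquartile range 0.00882 to 0.156, highest 0.399). In SKNO1-siAE the median level was 0.909 (interquartile range 0.819 to 0.961, lowest 0.609). The median difference was -0.777 (interquartile range -0.893 to -0.685). Over all 24231 intergenic tiles the medians were 0.797 in SKNO-1 and 0.883 in SKNO1-siAE, and the median difference was -0.0476.

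The opposite difference, 0.6 or more higher in SKNO-1, was found at 125 of the intergenic tiles (0.516%). Read against the tiles that could have shown it, 815 of the 20173 tiles with a level of at least 0.6 in SKNO1-siAE were lower (4.04%), and 125 of the 17343 with a level of at least 0.6 in SKNO-1 were higher (0.721%). In the other classes of tiles, those within 1500 bp of a protein-coding start were lower at 2060 of 43113 (4.78%), and the remaining tiles in protein-coding genes at 686 of 32503 (2.11%). The shares higher in SKNO-1 were 1.1% and 0.606% in these classes. Among tiles with a level of at least 0.6 in SKNO1-siAE, 10.3% and 2.32% were lower in SKNO-1 in these classes, so the intergenic share of 4.04% lay between them. The median difference of the tiles past the threshold was -0.824 near starts and -0.790 in gene bodies.

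The tiles were not all switched from one end of the scale to the other. A level under 0.1 in SKNO-1 was measured at 526 tiles (64.5%), and a level over 0.9 in SKNO1-siAE at 430 (52.8%), but only 249 (30.6%) met both. In 144 tiles SKNO-1 had a level of 0.2 or more, and in 174 tiles the SKNO1-siAE level was under 0.8. At the threshold itself, the tiles just inside were chr11:43601001-43601500 (-0.60077), chr20:61747501-61748000 (-0.60053) and chr10:80008001-80008500 (-0.60024). The tiles just outside were chr8:47130501-47131000 (-0.59977), chr7:157093501-157094000 (-0.59929) and chr11:115846001-115846500 (-0.59881). The values of these 6 tiles run on without a gap, so the threshold divides a continuous range. The first of them, chr11:43601001-43601500, was no longer past it with calls pooled over the tile (-0.498) or with merged strands (-0.568), and chr10:80008001-80008500 was not with merged strands (-0.597).

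Single cytosines showed the same separation. In SKNO-1, 79.9% of the 19162 cytosines had a level of at most 0.1 and 76.1% were at exactly 0, while 2.17% had a level of at least 0.9. In SKNO1-siAE, 72.8% had a level of at least 0.9 and 64.5% were at exactly 1, while 2.75% had a level of at most 0.1. The level was lower in SKNO-1 at 18228 cytosines (95.1%). Every measured cytosine was lower in SKNO-1 in 409 tiles (50.2%), beside 2.42% of the 20173 intergenic tiles with a SKNO1-siAE level of at least 0.6. In 284 tiles (34.8%) the highest cytosine in SKNO-1 was still below the lowest in SKNO1-siAE, which held for 1.48% of those 20173 and 1.29% of all intergenic tiles. These counts come from the values that chose the tiles and describe their evenness. Cytosines of a tile share reads and are not replicates.

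The strands of a tile were also read apart, although both entered the level that chose it, so that the values are again a description of evenness. In the 554 tiles with at least 5 measured cytosines on each strand, the + strand gave a median difference of -0.797 and the - strand one of -0.805. The standard deviation of the difference between strands was 0.133 in SKNO-1 and 0.121 in SKNO1-siAE. Both strands were lower by 0.6 or more in 414 of these tiles (74.7%) and by 0.4 or more in 545. The weakest values were -0.194 (+ strand) and -0.215 (- strand).

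Tiles whose positions were at most 2 tiles apart were joined into loci. The 815 tiles formed 665 loci, of which 537 held 1 tile, 108 held 2, 18 held 3 and 2 held 4. The 128 loci of more than 1 tile held 278 tiles (34.1%), and the other 537 tiles formed a locus each. A tile joins a locus only where its neighbour was also captured well enough to be compared, so these numbers also depend on capture. Neighbouring tiles with at least 3 measured cytosines differed less between the libraries. At 500 bp before the tiles the mean difference was -0.300 (302 neighbouring tiles that were not themselves among the 815), and at 500 bp after them it was -0.320 (264). At 1 kb the mean differences were -0.137 and -0.171, at 1.5 kb -0.0852 and -0.112, at 2 kb -0.139 and -0.0902, at 2.5 kb -0.106 and -0.0786, and at 5 kb -0.0836 and -0.0786. Around the other tiles with a SKNO1-siAE level of at least 0.6, the mean difference lay between -0.100 and -0.0812 at every distance. Beyond 500 bp, the means at 1, 2 and 2.5 kb before the tiles and at 1 and 1.5 kb after them lay below that range. Other means lay above it, such as -0.0446 at 4.5 kb before and -0.0467 at 3 kb after. At the distances named first, the medians were -0.0434, -0.0387 and -0.0286 before and -0.0837 and -0.0376 after. Around the other tiles they were -0.0530, -0.0581, -0.0565, -0.0530 and -0.0538. Except at 1 kb after, the median neighbour there thus differed less than around the other tiles. Neighbours that were themselves among the 815 were left out, which fixes part of the fall.

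The largest locus lay at chr6:28457001-28459500, with 4 tiles and 105 cytosines, in the lncRNA genes ENSG00000286819 and ENSG00000287804. The nearest protein-coding start was that of GPX6 (ENSG00000198704), an olfactory glutathione peroxidase, at 24064 bp. Methylated calls were 26 of 1861 in SKNO-1 (0.0140) and 1647 of 2008 in SKNO1-siAE (0.820). In the tile whose stretch is printed above, 35.9% of all 50 bp words of the reference occur again elsewhere in the genome. The other 3 tiles hold none. The 4 tile levels ran from 0 to 0.0317 in SKNO-1 and from 0.678 to 0.961 in SKNO1-siAE.

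The locus at chr13:44988501-44990500 also held 4 tiles, with 74 cytosines, and overlapped no annotated gene. TSC22D1 (ENSG00000102804), a leucine-zipper transcription factor induced by TGF-beta, had the nearest start, at 20494 bp. Methylated calls were 13 of 1265 in SKNO-1 (0.0103) and 1844 of 1957 in SKNO1-siAE (0.942). All 74 cytosines were lower in SKNO-1, and in the tile at its end the levels were 0 and 1. Surroundings differed among the 6 loci. Here the 84 measured cytosines outside the locus and within 3000 bp of its centre averaged 0.940 in SKNO-1 and 0.906 in SKNO1-siAE. The corresponding means were 0.706 and 0.935 at the FOXP4 locus (28 cytosines) and 0.719 and 0.815 at the TBX2 locus (18), lower in SKNO-1. They were 0.912 and 0.958 at the SELENOP locus (128), 0.714 and 0.722 at the FAM72B locus (34) and 0 and 0.130 at the GPX6 locus (6).

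The densest of the large loci, chr17:59488001-59489500, held 142 cytosines in 3 tiles with CpG-island composition. It covers starts of the lncRNAs TBX2-AS1 and LINC02875, 10797 bp from the start of TBX2 (ENSG00000121068), a T-box repressor of development. Methylated calls were 19 of 2711 in SKNO-1 (0.00701) and 1584 of 1735 in SKNO1-siAE (0.913). SKNO-1 was lower at 140 of the 142 cytosines.

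At chr1:121260501-121262000 the 3 tiles covered starts of the transcribed pseudogene EMBP1 and the lncRNA ENSG00000272583, far (421089 bp) from the nearest protein-coding start, that of FAM72B (ENSG00000188610). Methylated calls were 128 of 2206 in SKNO-1 (0.0580) and 2023 of 2097 in SKNO1-siAE (0.965). The methylated calls in SKNO-1 lay mostly at its left edge, where the first tile had 124 of 984. EMBP1 is annotated as a pseudogene, and up to 4.43% of the 50 bp words in a tile occur again in the genome.

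The locus at chr6:41472001-41473500 lay inside FOXP4-AS1 and LINC01276, 40619 bp from FOXP4 (ENSG00000137166), a forkhead transcription factor. Methylated calls in SKNO-1 were more frequent here, with 572 of 2543 (0.225), against 3268 of 3435 in SKNO1-siAE (0.951). Its 3 tiles had levels from 0.108 to 0.257 in SKNO-1, whereas the SKNO1-siAE levels were 0.914 to 0.991.

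The locus at chr5:42949501-42951500 overlaps no gene and lies 62007 bp from the start of SELENOP (ENSG00000250722), the gene of a selenium transport protein. In its 3 tiles, with 93 cytosines, methylated calls were 147 of 2788 in SKNO-1 (0.0527) and 3092 of 3250 in SKNO1-siAE (0.951). The locus was uneven. The first 2 tiles had SKNO-1 levels of 0.00699 and 0.0186, and the last tile had 0.368, with fewer calls in SKNO-1 (378) than in SKNO1-siAE (1163). Between the second and the last tile lay a stretch that these counts leave out. Its measured cytosines had a level of 0 in SKNO-1 and levels from 0 to 0.608 in SKNO1-siAE. With that stretch included, the 111 cytosines of the locus averaged 0.120 in SKNO-1 and 0.826 in SKNO1-siAE, and 94 were lower in SKNO-1.

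In 7 tiles the difference was complete, with no methylated call in SKNO-1 and no unmethylated call in SKNO1-siAE, and the 5 of these with the most calls are given here. At chr16:30411501-30412000, near ZNF48, a zinc-finger gene, 25 cytosines gave 0 of 212 methylated calls against 323 of 323. At its deepest cytosine this tile had 25 reads, the only part of the sum known to be separate reads, and 0 of 25 allows a level of up to 0.120 (3 reads, counting error only). Whether duplicates are among these reads is not known, and the tile was chosen for its low level, so the limit is only a rough guide. The limits below are taken in the same way. At chr22:46440501-46441000, at the start of the lncRNA LINC00899 and 67459 bp from WNT7B, a Wnt ligand gene, 0 of 208 and 183 of 183 calls were methylated (limit 0.188). At chr2:43038501-43039000, 18778 bp from HAAO, an enzyme gene of the kynurenine pathway, 0 of 127 and 288 of 288 were methylated, with 10 reads at the deepest SKNO-1 cytosine. The tile chr13:44990001-44990500 belongs to the TSC22D1 locus above, with 0 of 150 and 288 of 288 (limit 0.136). The tile chr15:32639001-32639500, nearest GOLGA8K, gave 0 of 81 and 179 of 179 (limit 0.375), but 84.0% of its 50 bp words occur again in the genome, and whether its reads belong there was not tested.

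The 5 tiles with the most calls in their shallower library, given as a description of the deepest among the chosen tiles, had between 1809 and 2668 calls in each library. At chr1:17034001-17034500, in the pseudogene ESPNP, 79 cytosines had levels of 0.0197 and 0.885, from 39 of 2181 and 1814 of 2074 calls. At chr6:137736501-137737000, 78531 bp from OLIG3, a neural basic helix-loop-helix gene, 20 of 1884 and 1519 of 1809 calls were methylated. At chr7:1250001-1250500, 22008 bp from the homeobox gene UNCX, the counts were 63 of 2061 and 1700 of 2062. In the tiles chr1:17012501-17013000 and chr9:66455501-66456000, 43.0% and 34.8% of the 50 bp words occur again, and the levels were 0.0284 and 0.931 in the former and 0.271 and 0.931 in the latter. The median number of calls over all 815 tiles was 297 in SKNO-1 and 327 in SKNO1-siAE.

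The rule set no limit on base composition other than the 10 measured CpG cytosines, which is a lower limit on CpG number for all compared tiles. The median tile held 24 CpG dinucleotides, against 19 in the 20173 intergenic tiles with a SKNO1-siAE level of at least 0.6, the comparison tiles from here on, which include the 815. The median observed to expected CpG ratio was 0.616 against 0.530, and the median content of G and C was 58.4% against 55.2%. CpG-island composition, meaning over 50% G and C and a ratio over 0.6 within the tile, was found in 372 of the 815 tiles (45.6%) and in 25.9% of the comparison tiles. That share depended on the number of cytosines asked for: with at least 20 it was 62.9%, against 42.4% of comparison tiles held to the same limit. With merged strands, where each CpG counted once and fewer sites were asked for, it was 34.6%, against 20.3%. The share was 67.5% in the lower tiles near protein-coding starts, 34.1% in those of gene bodies and 28.0% in the 125 intergenic tiles higher in SKNO-1.

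Read the other way, the share of tiles that were lower in SKNO-1 climbed with CpG number. It was 2.47% (95% Wilson interval 1.90 to 3.19) with at most 10 CpG, 3.02% with 11 to 20 and 3.59% with 21 to 30. It was 6.82% (5.83 to 7.96) with 31 to 40, 10.2% with 41 to 50 and 13.1% (10.2 to 16.6) above 50. Tiles with CpG-island composition were lower in 7.13% of cases (6.46 to 7.85) and the others in 2.96% (2.70 to 3.25). These intervals count tiles as if independent, which neighbouring tiles are not, and cover counting error only. The 372 tiles of island composition had a median difference of -0.833, with median levels of 0.0354 and 0.926. The other 443 had -0.742, with 0.0692 and 0.889. A level under 0.1 in SKNO-1 together with one over 0.9 in SKNO1-siAE was measured in 39.0% of the former and 23.5% of the latter.

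**Figure D1:**
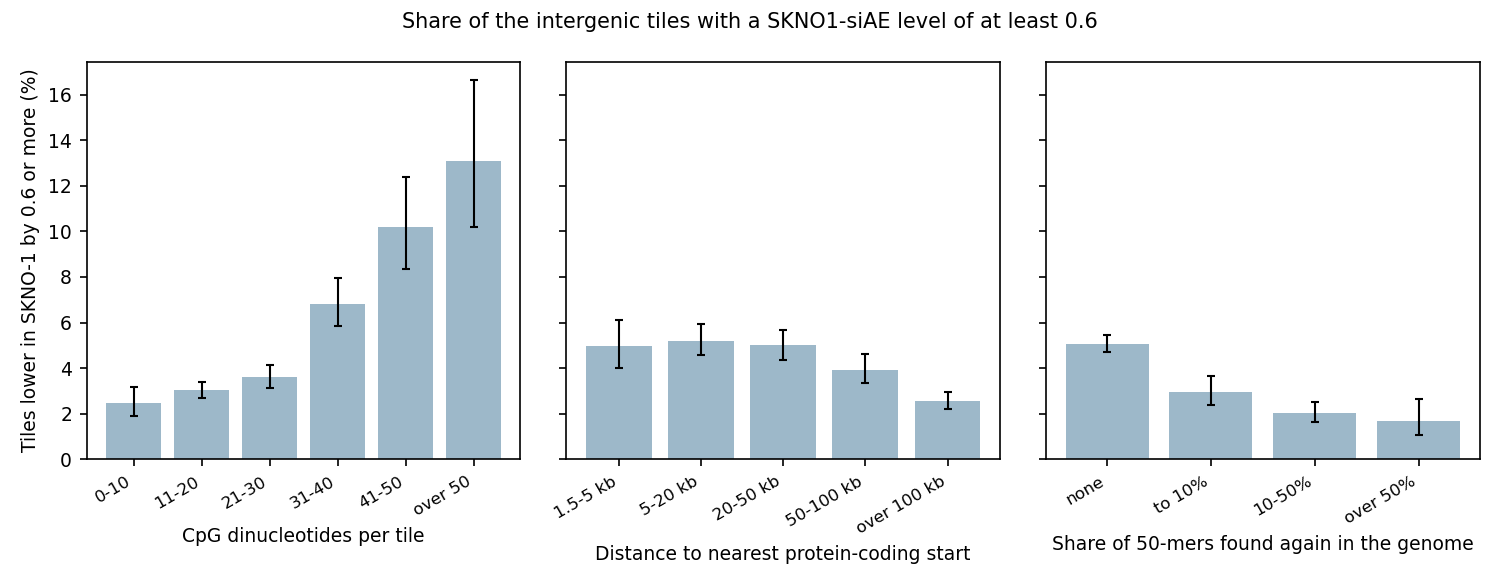
Share (%) of intergenic tiles with a SKNO1-siAE level of at least 0.6 that were lower in SKNO-1 by 0.6 or more, by number of CpG, by distance to the nearest protein-coding start and by the share of 50 bp words found again in the genome. Bars start at 0 and error bars are 95% Wilson intervals over tiles. The share rises from 2.47% to 13.1% with CpG number. It is near 5% up to 50 kb and lower beyond, and falls to 1.69% with over 50% repeated words.

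Distance to protein-coding genes, beyond the 1500 bp limit, was not part of the choice either. The nearest protein-coding start lay at a median of 32402 bp, against 50620 bp for the comparison tiles, and it belonged to 595 different genes. It lay over 100 kb away for 170 tiles (20.9%, against 33.0%). The share of tiles lower in SKNO-1 was 4.96%, 5.19% and 4.99% at 1.5 to 5 kb, 5 to 20 kb and 20 to 50 kb, then 3.92% at 50 to 100 kb and 2.55% (2.20 to 2.96) beyond. The tile lay upstream of that start in 465 cases and downstream in 350. The rule leaves out tiles in protein-coding genes, which lie downstream of the start of their gene. No such split is given for the comparison tiles, so it is not read as a property of the lower tiles.

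Annotated genes of any kind, all noncoding by the rule, overlapped 358 of the 815 tiles (43.9%) and 8264 of the 20173 comparison tiles, so these shares were close. A lncRNA transcript start lay within 1500 bp of 244 tiles (29.9%), against 18.4% of the comparison tiles. It lay inside 110 of the 815 tiles and inside 1297 of the 20173 comparison tiles. Of the 815 tiles, 308 lay in a lncRNA gene (37.8%, against 32.4%), 186 in an exon of one (22.8%, against 14.6%) and 67 in a pseudogene (8.22%, against 11.5%). With at least 20 measured cytosines per tile the share near a lncRNA start was 37.6%, against 20.2% of comparison tiles held to the same limit, and with merged strands it was 26.3%, against 17.0%. Composition and start went together only in part. Tiles with both were lower in SKNO-1 in 9.92% of cases, with composition alone in 6.17%, with the lncRNA start alone in 4.71% and with neither in 2.63%. The 125 tiles of the opposite direction lay within 1500 bp of a lncRNA start in 44.8% of cases, so nearness to such starts was not limited to the lower tiles.

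By size of the difference, the tiles at lncRNA starts were led by FGGY-DT, LINC01833 and LINC00899. The tile at a start of FGGY-DT, chr1:59612501-59613000, also overlaps LINC01358 and lies 149310 bp upstream of the nearest start of the kinase gene FGGY. It held 0 of 70 methylated calls in SKNO-1 (limit 0.429) and 50 of 50 in SKNO1-siAE. LINC01833 lies 2341 bp from SIX3, a homeobox gene of the forebrain and eye, and at chr2:45166001-45166500 had 0 of 99 and 88 of 88 (limit 0.333). LINC02777 had 0 of 476 and 338 of 339 at chr1:59369501-59370000, with JUN as the nearest protein-coding gene at 119782 bp. In the tile of ENSG00000289755 at chr16:28634501-28635000, 0 of 154 and 369 of 370 calls were methylated, and 10.2% of its 50 bp words occur again. SERPINB9P1 at chr6:2875501-2876000 had 4 of 580 and 269 of 271, and ENSG00000273784 at chr13:53174001-53174500 had 3 of 592 and 512 of 514. The tile of ENSG00000272583 is the middle tile of the chromosome 1 locus described above, with 3 of 887 and 964 of 970. All 8 were CpG-island in composition.

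A miRNA gene lay in 2 of the 815 tiles (0.245%, against 0.654% of the comparison tiles). The mature forms are printed from RefSeq (GRCh38.p14), with the seed, bases 2 to 8, in capitals, to identify the small RNAs encoded there. No 2 of the 4 share a seed.
hsa-miR-146b-3p: gCCCUGUGgacucaguucuggu
hsa-miR-146b-5p: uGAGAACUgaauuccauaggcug
hsa-miR-92b-3p: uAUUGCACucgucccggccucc
hsa-miR-92b-5p: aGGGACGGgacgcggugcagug

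MIR92B (chr1:155164968-155165063) begins in the tile chr1:155164501-155165000, which also overlaps the lncRNA THBS3-AS1 and lies 1795 bp from the nearest start of MUC1, a mucin gene. Its 40 cytosines had 0 of 873 methylated calls in SKNO-1 (limit 0.0833) and 464 of 471 in SKNO1-siAE. The tile has CpG-island composition, with 57 CpG. The MIR146B gene (chr10:104196269-104196341), which encodes a miRNA of innate immune signalling, lies within chr10:104196001-104196500, a tile of only 7 CpG. Its 14 cytosines, both strands counted, had 23 of 369 methylated calls in SKNO-1 and 339 of 342 in SKNO1-siAE. Expression of these miRNAs was not measured in the files used here.

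Regulators of blood formation are named by the nearest protein-coding start, which does not show that a tile acts on that gene. Of 815 tiles, 18 in 15 loci were nearest to 11 genes of a list of haematopoietic regulators, or 2.21%, against 1.31% of the comparison tiles. Among the tiles nearest to that list with a SKNO1-siAE level of at least 0.6, 6.79% were lower in SKNO-1, beside 4.04% over all such tiles. The median difference of the 18 was -0.845. Over all 815 it was -0.777, and every such median is of values chosen for their size. The list was drawn up with earlier results of these data known.

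Within the list, the difference closest to complete was in GATA2-AS1, at chr3:128216501-128217000, 4457 bp upstream of the nearest start of GATA2, a zinc-finger factor of blood stem and progenitor cells. It had 0 of 194 methylated calls in SKNO-1 (limit 0.231) and 439 of 445 in SKNO1-siAE. All 20 cytosines were lower, and the lowest in SKNO1-siAE was 0.907. SKNO-1 had fewer calls there (log2 call ratio -1.22 after scaling to library totals). Another tile 61957 bp upstream of GATA2, at chr3:128274001-128274500, had 9 of 154 and 162 of 168.

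PAX5, the B-lineage commitment factor, had 2 neighbouring tiles at chr9:37036001-37037000, at 1736 and 2236 bp upstream. The nearer had levels of 0.184 and 0.835, and the farther 0.00284 and 0.772, from 1 of 662 and 311 of 396 calls. BCL11A, a repressor of fetal globin, had tiles at 2899 and 15399 bp upstream. The former, chr2:60784501-60785000, had 0 of 234 methylated calls (limit 0.125) and 245 of 274, and the latter had levels of 0.121 and 0.768, a difference of -0.647 that was -0.587 with calls pooled over the tile, no longer past the threshold. LEF1, a factor of Wnt signalling in lymphocytes, had a tile at the start of LEF1-AS1 (chr4:109094001-109094500) with 0 of 96 (limit 0.231) and 57 of 62.

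ID2, an inhibitor of basic helix-loop-helix factors, had 4 tiles. At 3315, 10815 and 11315 bp downstream of its start the SKNO-1 levels were 0.0667, 0.0197 and 0.0410, and the SKNO1-siAE levels were 0.937, 0.928 and 0.921. The fourth, 102975 bp upstream at the start of LINC01814, had 0 of 125 (limit 0.176) and 115 of 129 methylated calls. ZFPM1, the GATA1 cofactor known as FOG1, had a tile 7688 bp upstream with 3 of 267 and 85 of 120. CBFA2T3, a corepressor of the same family as RUNX1T1, had a tile 26386 bp upstream with 86 of 380 and 219 of 270, and levels of 0.135 and 0.768. Its difference, -0.632, was -0.585 with pooled calls and -0.589 with merged strands, no longer past 0.6. This SKNO-1 level lay above the median of the 815 tiles, and that of the ZFPM1 tile, 0.00595, below it.

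The other members of the list were farther from a start. WT1 had 2 tiles 83643 and 84143 bp downstream, in the pseudogene THEM7P, with levels of 0.0195 and 0.0852 in SKNO-1 and 0.975 and 0.903 in SKNO1-siAE. MEIS1, KLF4 and MAF each had 1 tile, at 137191, 147238 and 169867 bp, with differences of -0.601, -0.951 and -0.690. With pooled calls that of MEIS1 was -0.598.

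Genes expressed in myeloid cells gave 4 tiles in 2 loci, or 8.70% of the 46 comparison tiles nearest to that list, beside 4.04% over all comparison tiles. They were 0.491% of the 815 tiles and 0.228% of the comparison tiles, and their median difference was -0.655, smaller in size than that of all 815. CD34, a surface marker of stem and progenitor cells, had 3 tiles in a row at the start of LINC02767, chr1:208132001-208133500. The middle tile had 14 of 599 methylated calls in SKNO-1 and 245 of 256 in SKNO1-siAE, and its flanking tiles had SKNO-1 levels of 0.322 and 0.361. The difference of the last, -0.628, was -0.598 with merged strands. CSF3R, the receptor of granulocyte colony-stimulating factor, had 1 tile 107622 bp upstream with levels of 0.219 and 0.857. Its difference, -0.638, was -0.580 with pooled calls and -0.542 with merged strands, so that it no longer passed 0.6. With 2 loci, the share rests on very few places.

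The shares of the other lists lay between 2.22% and 3.78%, beside 4.04% over all comparison tiles. Developmental transcription factor and WNT families, which hold TBX2, FOXP4, SIX3, OLIG3 and WNT7B named above, were nearest to 67 tiles in 50 loci. This was 8.22% of the 815 tiles and 8.87% of the comparison tiles, and 3.75% of the tiles nearest to those genes were lower. Zinc-finger genes named ZNF were nearest to 26 tiles, with 3.78% lower, olfactory receptors to 3 (2.22%) and protocadherins to 2 (3.17%). The median differences of these lists were -0.768, -0.818, -0.605 and -0.781 in that order.

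Short words that transcription factors are known to bind were counted in the tiles on both strands. A word is a match of letters and not a bound site. The RUNX words TGTGGT and TGCGGT, at least 1 of them, were present in 284 tiles (34.8%), in 32.8% of the comparison tiles and in 33.0% of all intergenic tiles. TGTGGT alone was in 21.1% against 22.4%, and TGCGGT, which holds a CpG, in 16.1% against 14.0%. The GATA words AGATAA and TGATAA were in 14.0% and 12.5%, against 15.7% and 12.3%. The CEBP word TTGCNNAA was in 13.4% against 15.4%, the PU.1 word GAGGAAGT in 3.31% against 2.19%, and the AP-1 word TGANTCA in 10.1% against 9.90%. E-box words CACGTG and CAGCTG were in 11.7% and 31.5%, against 12.2% and 31.7%.

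Words with more G and C, and the CRE, follow. GGGCGG, the box of SP factors, was in 53.7% of the 815 tiles, against 36.3% of the comparison tiles and 37.6% of all intergenic tiles. The core word of the CTCF consensus was in 19.5%, against 12.5% and 14.4%. CCGGAAGT, an ETS word, was in 2.09% against 1.04%, the palindromic NRF1 word in 0.736% against 0.273%, and TGACGTCA, the CRE, in 0.736% against 0.496%. Because the tiles hold more CpG, the 2 commoner words were also counted within classes of CpG number. Among comparison tiles with over 30 CpG, 12.5% of those with the CTCF-like word were lower in SKNO-1 (10.2 to 15.3) and 7.51% of those without (6.59 to 8.55). With at most 30 CpG, 4.20% of those with the word were lower (3.38 to 5.20), and 445 of the 14844 without it (2.74 to 3.28). For GGGCGG the shares were 9.79% and 5.30% above 30 CpG, and 4.12% and 2.72% below. These classes are broad and do not hold CpG number fixed. Within them the share still rose with CpG number, from 2.47% to 3.59% and from 6.82% to 13.1%. GGGCGG itself holds a CpG, and the content of G and C was not matched. Whether the words matter apart from composition was not tested.

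The tiles were found on all 22 autosomes. The share of comparison tiles that were lower was highest on chromosome 19 (33 of 448, 7.37%, interval 5.29 to 10.2), followed by chromosomes 9 (6.55%) and 17 (6.23%). Chromosome 1 held the most, with 93 tiles (5.72%). The lowest shares were on chromosomes 8 (2.54%, 1.72 to 3.72), 4 (2.75%) and 7 (2.78%). Read depth also differed by chromosome between the libraries, with medians of the log2 call ratio (SKNO-1 over SKNO1-siAE, scaled to library totals) from -0.55 on chromosome 18 to 0.46 on chromosome 15. The part of this in the shares was not tested.

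Repeated sequence and read depth are given beside these counts. Exact repeats of 50 bp words made up at least 10% of 94 tiles (11.5%), against 23.9% of the comparison tiles, and at least 50% of 18. The share lower in SKNO-1 was 5.06% in tiles without any repeated word and 1.69% in those with over 50%. The median log2 call ratio was -0.15 over the 815 tiles and -0.03 over the comparison tiles. The share lower was 5.25% where the ratio was at most -1 and 3.37% where it was above 1. With the ratio within 0.5 of 0, 413 tiles remained and the share was 3.88%. The lower tiles thus tended to have somewhat fewer SKNO-1 calls, and the part of depth in the difference was not tested beyond these counts.

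The libraries held a like number of calls, with 83620068 over 4713346 cytosines in SKNO-1 and 82164216 over 4694016 in SKNO1-siAE. The cytosines shared by both, 3168726, had a median depth of 16 and 15 reads and mean levels of 0.587 and 0.655. SKNO-1 was thus lower on average over all shared cytosines. With 1 library per line there is no replicate error to set these differences against, and the reads carry no molecular identifiers.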

How the data were processed

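Both libraries were made by bisulfite conversion and capture with SeqCap Epi probes. After trimming and alignment to hg19, the authors deposited raw counts of methylated and of unmethylated reads for every CpG cytosine, strand by strand, wherever at least 5 reads were found. The submitters' processing notes name cutadapt 1.4.2 and BSMAP 2.73. Per the study's methods, calls came from unique sequences, a term left undefined, and whether PCR duplicates were removed is not given in the sources used here. The deposited counts have no header, and the first count was taken as methylated: on that reading the median tile level was 0.176 in SKNO-1 and 0.443 in SKNO1-siAE within 1500 bp of protein-coding starts, and 0.915 and 0.936 in gene bodies. Positions were checked to be C on the + strand or G on the - strand of GRCh37.

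From the counts, the level of a site, of a tile and of calls summed over a tile was computed, with 95% Wilson intervals for shares of tiles only. Genes came from GENCODE release 44 lifted to GRCh37. Comparison tiles are intergenic tiles with a SKNO1-siAE level of at least 0.6. Repeats were exact 50 bp words on either strand of the unconverted reference.

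The tiles, gene lists, words and comparisons were chosen with earlier results of these data known. Named tiles are those of 6 loci (the most tiles, then the most measured cytosines), the 5 lowest differences, the 5 deepest, 3 on each side of the threshold, those nearest listed blood genes (12 by distance, the other 10 also given), those in miRNA genes and the 8 lowest at lncRNA starts. No test was run, since each group held 1 library. The selection script was tested on simulated data, in which calls were independent and changed tiles lay far past the threshold. Differences near the threshold and calls that share reads were not simulated. Python 3.11.15, numpy 2.4.6, pandas 2.3.3, scipy 1.17.1, numba 0.67.0 and matplotlib 3.10.9 were used.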

Additional observations from a re-analysis of the deposited data

How the results depend on the processing

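The number of intergenic tiles lower in SKNO-1 by 0.6 or more was 815. It was 451 with at least 10 reads per site, 407 with at least 20 sites per tile, 457 without tiles in any annotated gene and 413 with a log2 call ratio within 0.5, an alternative chosen after seeing the data. These settings test fewer tiles, and the share lower stayed between 3.22% and 3.69%. The number higher in SKNO-1, 125, became 66, 52, 54 and 55 under the same settings, 195 with merged strands and 191 at a threshold of 0.5. The median difference, -0.777, became -0.791 with at least 10 reads, -0.796 with at least 20 sites, -0.782 with tiles shifted by 250 bp, -0.768 without annotated genes, -0.767 with merged strands, -0.774 with under 10% repeated words (chosen after seeing the data) and -0.767 with the call ratio limit. Pooled reads, merged strands and the stricter distance gave 830, 1201 and 733 lower tiles, and lower tiles made up 85.5% to 89.4% of both directions in every setting. With merged strands each CpG counted once and fewer sites were asked for. More tiles (34824) were tested there, and 3.45% were lower. Of the 815 tiles, 415 were among the 451, 760 among the 830 and 755 among the 1201. The difference of the 65 named tiles kept its direction with pooled reads and with merged strands, as it did in the 40 that had enough sites of at least 10 reads. These settings use the reads that chose the tiles, and the largest moves were 0.119, 0.0961 and 0.136. A change of direction was thus hardly possible. Of these 65, 62 passed the threshold as reported and 3 were named as lying just outside it. With pooled reads and with merged strands 57 of the 62 still passed, as did 38 of 38 with at least 10 reads, and none of the 3 did in any setting that gave it a value.

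No paired analysis was possible because each group held 1 library. For the same reason no replicate was left out. At a median of 16 and 15 reads per shared site, single sites are imprecise, and calls summed over a tile are not independent reads.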
